A study of Homo sapiens with 6 samples.

Results

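The mitosis and cytokinesis genes were 44 named genes that act from the end of G2 to the separation of daughter cells, and they were described across RNA sequencing of HepG2 cells with and without knockdown of ARHGEF2. They were chosen by gene name, with earlier results of these data known. All 44 were found among the 27605 genes of the table. HepG2 is a human cell line derived from a liver tumour, and the labels call it a hepatoma carcinoma cell. The 3 shNC libraries came from HepG2 cells of WT genotype with a control hairpin, and the 3 shARHGEF2 libraries came from HepG2 cells of ARHGEF2 knockdown genotype, infected with a lentivirus that expressed a short hairpin RNA against ARHGEF2. The study describes a stably knocked-down line, and the time after infection, the number of hairpins and whether the libraries came from separate cultures are not given in the sources used here. The p-values therefore measured only the spread between these libraries, which may be technical.

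Entry into mitosis is driven by CDK1 bound to B-type cyclins, with the Polo and Aurora kinases, and exit follows when the anaphase-promoting complex (APC/C) marks cyclin B and securin for destruction. Between these steps the kinetochore ties each chromosome to spindle microtubules, and afterwards the central spindle and a contractile ring cleave the cell. ARHGEF2 (also called GEF-H1) is a microtubule-bound exchange factor that loads GTP on RHOA, and active RHOA, switched on at the cell equator by ECT2 with the centralspindlin proteins RACGAP1 and KIF23, builds that ring. Most of these genes are transcribed mainly in G2 and mitosis, so in bulk RNA a change in the share of cells in those phases and a change in RNA per cell cannot be told apart.

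The targeted gene was lower in every library labelled as knocked down. ARHGEF2 stood at 13.0, 14.4 and 13.9 FPKM in the shNC libraries and at 4.25, 4.004 and 4.82 FPKM in the shARHGEF2 libraries, so that the groups did not overlap (log2 fold change -1.47, SE 0.11, limma adjusted p = 0.00244). This call was lost with a replicate block (limma adjusted p = 0.0716) and with no filter on low values (0.0701). FPKM counts fragments per length of transcript and per sequenced fragments, so it is a level per length. RHOA was at 222, 210 and 213 FPKM in shNC and at 212, 205 and 210 FPKM in shARHGEF2 cells, with a log2 fold change of -0.04 (SE 0.07, limma adjusted p = 0.866). The depth was not given as counts, and the spacing of low values gave estimates of 20054259 to 23137196 read pairs per library. Of 19 hepatocyte markers, 11 were in the table and 1, VTN, had a mean of at least 1 FPKM (5.95 FPKM). AFP, APOA1, SERPINA1 and HNF4A stayed at or below 0.248 FPKM in all 6 libraries, so defining liver markers were at or near 0 in cells labelled HepG2. No endothelial marker had a mean of at least 1 FPKM, while CD68 (of the leukocyte list) and 2 of 5 fibroblast markers did. The summed fibroblast markers ranged from 11.1 to 13.1 FPKM in shNC and from 14.3 to 14.8 FPKM in shARHGEF2 libraries, and the summed hepatocyte markers from 6.02 to 6.24 FPKM and from 6.72 to 7.70 FPKM. The part of these markers in the values below was not tested.

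No mitosis or cytokinesis gene passed the test for a change with ARHGEF2 knockdown. Of the 44 genes, 42 had a mean of at least 0.5 FPKM and were tested, and 0 of them were called at an adjusted p under 0.05 (limma on log2(FPKM + 1)). In the same fit 34 of 12291 genes were called, or 0.277% of all genes tested (0.195% higher and 0.0814% lower). At an unadjusted p under 0.05 there were 5 genes, all with higher levels in shARHGEF2 cells (KIF2C, AURKB, UBE2C, CDC20 and TPX2), against 13.7% of all genes tested in either direction with 8.1% higher and 5.55% lower. The lowest adjusted p among the 42 genes was 0.117, for KIF2C (limma). The 2 genes not tested were CENPE and KIF20B, which lay below the minimum level.

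The fitted differences were small and mostly positive. The log2 fold change was above 0 for 33 of 42 genes, against 49.6% of all genes tested, and the median was 0.15 (range -0.17 to 0.51) against a median of -0.00 over all genes. The genes were chosen with earlier results of these data known, so this shift is a description and was not tested. The 3 values of shARHGEF2 lay outside the 3 values of shNC for 7 genes, 6 of them higher (AURKB, CDC20, CENPA, KIF2C, TPX2 and UBE2C) and 1 lower (HMMR), beside 20.5% of all genes tested (11.3% higher and 9.17% lower). This share of the 42 genes was close to that of all genes. Without shARHGEF2 replicate 1, groups did not overlap for 20 genes (31.6% of all genes tested), 11 genes had an unadjusted p under 0.05 (12.1% of all genes) and 39 were fitted higher, and still 0 were called. Without shARHGEF2 replicate 2, 29 genes were fitted higher and groups did not overlap for 11 (28.4% of all genes), and without shNC replicate 2 groups did not overlap for 12 (29.6% of all genes).

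**Figure D1:**
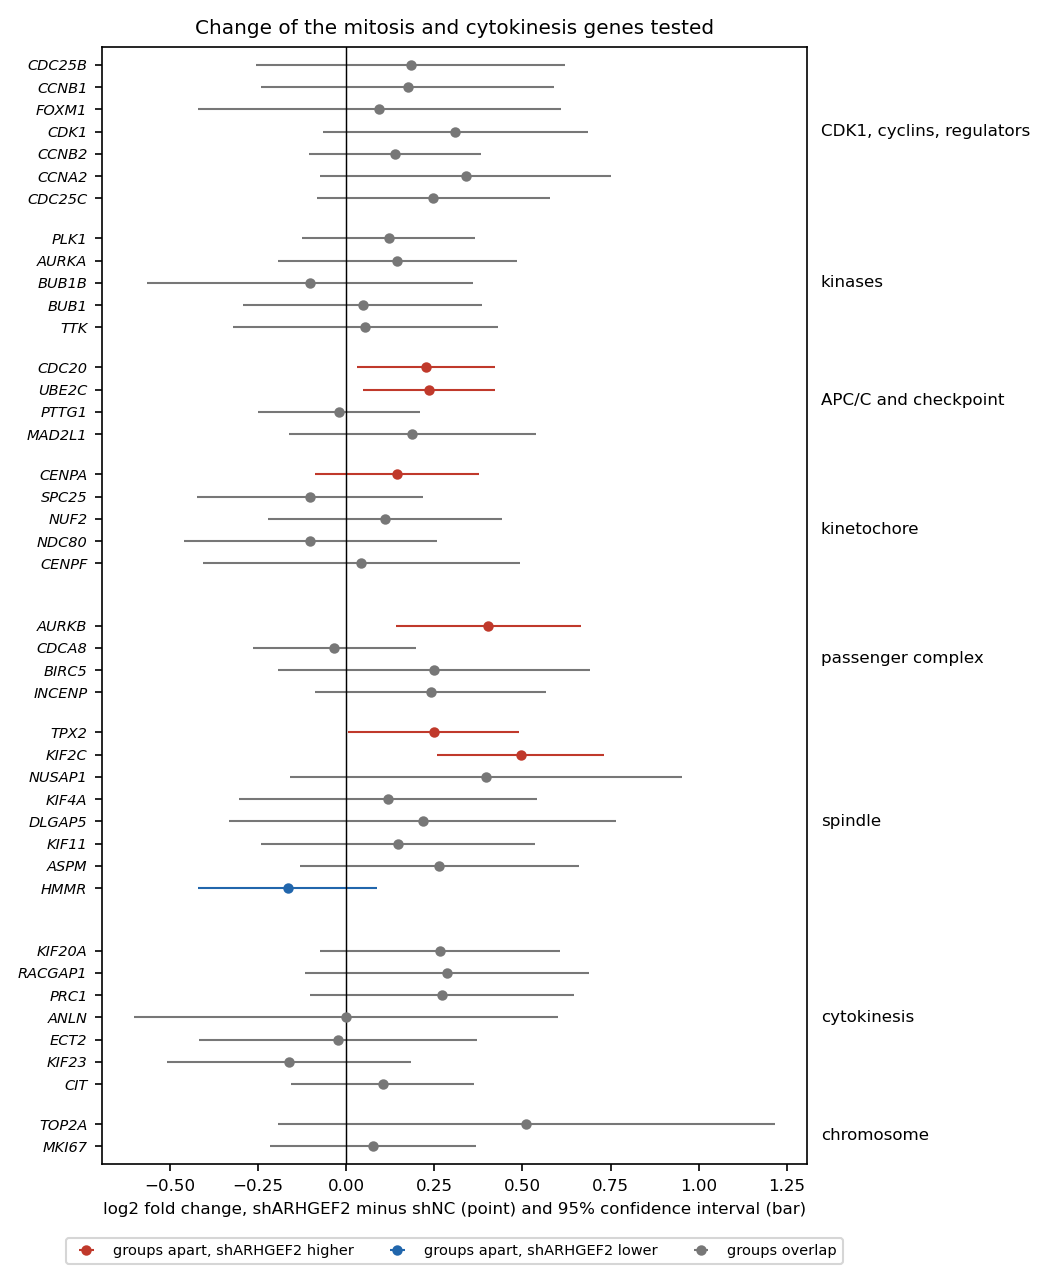
Fitted change of the 42 genes tested, as log2 fold change on the log2(FPKM + 1) scale (x axis, points) with its 95% confidence interval (bars), by role. Most points lie to the right of 0 (33 of 42), and the intervals of KIF2C, AURKB, UBE2C, CDC20 and TPX2 leave out 0 before any adjustment. HMMR is the 1 gene whose groups were apart with lower shARHGEF2 values.

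The levels of the genes spanned a wide range in these cells. Over all 6 libraries, 8 genes had a mean of at least 30 FPKM, 12 lay from 10 to 30 FPKM, 21 from 1 to 10 FPKM, and 3 (HMMR, KIF20B and CENPE) were under 1 FPKM. CDC20, CDC25B and UBE2C were highest (means of 96.2, 86.6 and 67.7 FPKM), at percentiles 96.4, 95.9 and 94.8 of the genes tested. The lowest was CENPE, a kinesin that moves chromosomes to the spindle equator, with 0.0652 to 0.190 FPKM. KIF20B, a kinesin of late cytokinesis, had 0.287 to 0.684 FPKM. Genes with high levels tended to have short transcripts of high GC content. Across the 44 genes the level in FPKM had a Spearman correlation of 0.74 with the mean GC content of the listed transcripts and of -0.54 with the longest listed transcript, and over all genes tested these were 0.31 and -0.17. These points share the same 6 libraries, and the correlations are descriptions.

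**Figure D2:**
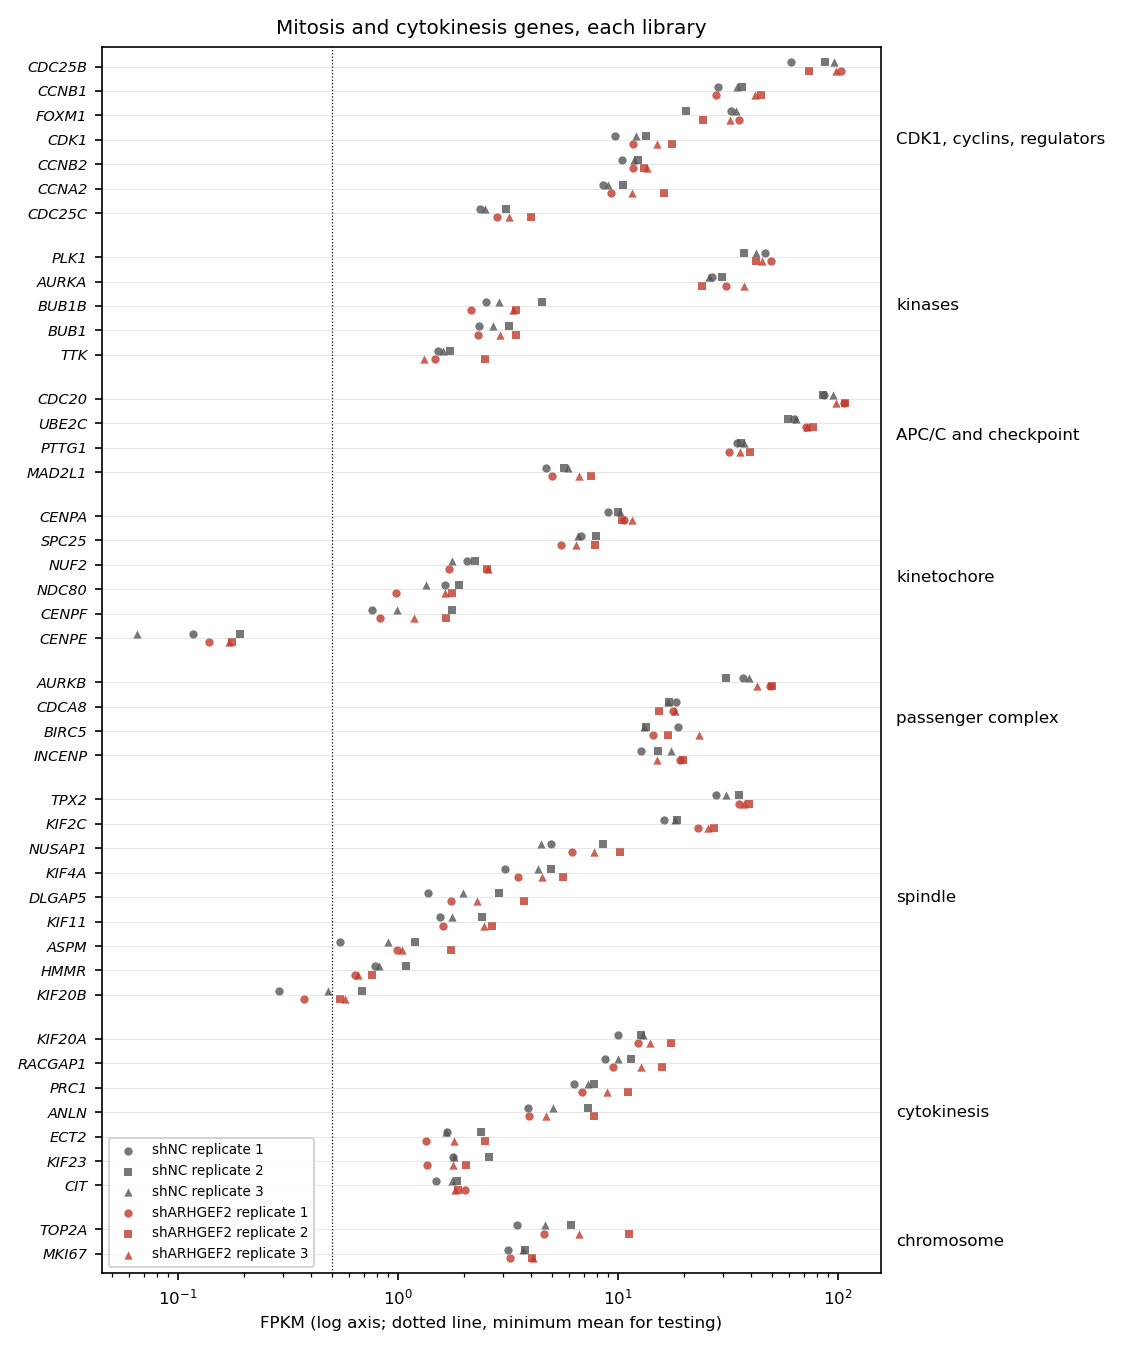
Level of each of the 44 genes in each library (x axis, FPKM on a log axis), grouped by role, with shNC in grey, shARHGEF2 in red and a different symbol for each replicate. The range runs from 0.0652 FPKM for CENPE to 107 FPKM for CDC20, and in most rows the red and grey symbols overlap. The dotted line is the minimum mean of 0.5 FPKM for testing.

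Promoters of these genes often held sequence elements known for genes of G2 and mitosis. The choice by name did not use sequences, but it took genes of these phases, so a high share was likely beforehand. Many G2 and mitosis genes are repressed outside these phases through a cell cycle genes homology region (CHR), to which the MuvB proteins bind, next to CCAAT boxes bound by NF-Y. RefSeq promoter windows of 300 bases on GRCh38.p14, which reach past the RefSeq start, were used. They were found for 37 of the 44 genes (not for FOXM1, AURKA, TTK, UBE2C, BIRC5, TPX2 and RACGAP1). On either strand, the CHR letters TTTGAA were in 27 windows (73.0%, against 15.4% of 27305 genes with a window) and TTTAAA in 13 (35.1% against 12.3%). The letters CCAAT were in 29 windows (78.4% against 35.7%) and an E2F-type GGCGGGAA in 3 (8.1% against 3.2%). Both a CHR and a CCAAT box were held by 26 of 37 windows, or 70.3%, against 9.5% of all windows. A match of letters is a description, not a bound site.

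The 200 bases before the RefSeq start are shown for the 5 genes with a window whose groups did not overlap, 4 with higher and 1 (HMMR) with lower shARHGEF2 values, because they differ in the elements they hold. Capitals mark the CHR forms TTTGAA (which reads TTCAAA when on the reverse strand) and TTTAAA, and the box CCAAT (which then reads ATTGG), all sequences read 5′ to 3′ on the gene's strand, and positions count back from -1, the last base before the start.
CDC20 (chr1:43358781-43358980, plus strand): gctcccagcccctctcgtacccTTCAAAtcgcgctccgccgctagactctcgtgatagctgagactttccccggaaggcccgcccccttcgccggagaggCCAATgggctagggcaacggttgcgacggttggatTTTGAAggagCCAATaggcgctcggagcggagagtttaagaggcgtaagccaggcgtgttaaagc
CENPA (chr2:26785856-26786055, plus strand): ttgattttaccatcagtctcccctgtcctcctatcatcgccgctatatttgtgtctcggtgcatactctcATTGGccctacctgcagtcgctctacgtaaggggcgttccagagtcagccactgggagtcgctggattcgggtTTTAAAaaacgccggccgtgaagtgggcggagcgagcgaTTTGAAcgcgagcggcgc
HMMR (chr5:163460432-163460631, plus strand): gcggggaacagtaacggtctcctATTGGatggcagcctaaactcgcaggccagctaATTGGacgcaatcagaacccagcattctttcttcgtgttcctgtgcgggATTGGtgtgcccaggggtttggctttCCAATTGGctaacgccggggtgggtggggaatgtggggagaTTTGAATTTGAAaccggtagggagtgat
AURKB (chr17:8210226-8210425, minus strand): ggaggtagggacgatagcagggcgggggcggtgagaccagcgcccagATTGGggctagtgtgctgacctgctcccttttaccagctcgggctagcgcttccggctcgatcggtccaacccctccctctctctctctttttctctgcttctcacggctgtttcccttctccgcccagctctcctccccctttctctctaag
KIF2C (chr1:44739637-44739836, plus strand): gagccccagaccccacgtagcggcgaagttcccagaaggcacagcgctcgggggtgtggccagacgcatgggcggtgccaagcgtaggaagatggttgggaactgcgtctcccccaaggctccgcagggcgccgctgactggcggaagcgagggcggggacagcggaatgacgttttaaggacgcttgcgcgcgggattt
CDC20 had TTTGAA at -65 between CCAAT boxes at -100 and -55, and a further reverse form at -178. CENPA held both CHR forms, TTTAAA at -57 and TTTGAA at -18. HMMR had adjoining TTTGAA elements at -28 and -22 and 5 CCAAT matches, of which the one at -69 overlaps the one at -66. AURKB showed 1 CCAAT match, at -153, and no CHR letters in this stretch. KIF2C, the gene of lowest p, held none of these letters in the 200 bases. Its 300-base window, which extends beyond this stretch on both sides, held TTTAAA. HMMR, with lower values in shARHGEF2 cells, held both kinds of element, as did CDC20 and CENPA, with higher values. None of these genes was called, and whether the elements relate to the direction of a difference was not tested.

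Among CDK1, the cyclins and their regulators, all 7 genes were fitted higher, with a median log2 fold change of 0.18. Of these, 0 had an unadjusted p under 0.05, against 13.7% of all genes tested. CDK1, the kinase that starts mitosis, was at 9.65, 13.4 and 12.0 FPKM in shNC and at 11.7, 17.6 and 15.0 FPKM in shARHGEF2 cells. CCNA2 encodes cyclin A2, which partners CDK1 and CDK2, and stood at 8.49, 10.6 and 8.97 FPKM in shNC and at 9.31, 16.1 and 11.6 FPKM in shARHGEF2 cells. In both genes the groups overlapped, and replicate 2 was the highest library of each group. Their log2 fold changes were 0.31 (SE 0.17) for CDK1 and 0.34 (SE 0.18) for CCNA2, each with a limma adjusted p of 0.455. CDC25B, a phosphatase that activates CDK1, was among the most abundant genes and varied most within groups on the FPKM scale, with 61.2, 87.0 and 95.9 FPKM in shNC and 103, 73.9 and 98.2 FPKM in shARHGEF2 cells. Its fitted log2 fold change of 0.18 (SE 0.19) was -0.01 without shNC replicate 1, the lowest library. FOXM1, a transcription factor that activates many of these genes, had 32.6, 20.2 and 34.3 FPKM in shNC and 35.4, 24.3 and 32.3 FPKM in shARHGEF2 cells. Replicate 2 was the lowest FOXM1 library in both groups, the reverse of the order for CDK1 and CCNA2, and the log2 fold change was 0.09 (SE 0.22, limma adjusted p = 0.902). It was -0.14 without shNC replicate 2 and -0.02 without shARHGEF2 replicate 1. The other 3 genes were the B-type cyclins CCNB1 (27.8 to 44.7 FPKM over the 6 libraries) and CCNB2 (10.5 to 13.5 FPKM) and the CDK1 phosphatase CDC25C (2.34 to 4.002 FPKM), with log2 fold changes from 0.14 to 0.25.

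Of the mitotic kinases outside the passenger complex, 4 of 5 were fitted higher, with a median log2 fold change of 0.05. PLK1, the Polo kinase of mitotic entry and cytokinesis, was at 46.5, 37.3 and 42.4 FPKM in shNC and at 49.6, 42.4 and 45.2 FPKM in shARHGEF2 cells, with a fitted log2 fold change of 0.12 (95% interval -0.13 to 0.37). AURKA, which drives centrosome maturation and spindle assembly, had 26.7, 29.5 and 25.8 FPKM in shNC and 30.9, 24.1 and 37.2 FPKM in shARHGEF2 cells. The shARHGEF2 values of AURKA held both the lowest and the highest of the 6 libraries. The checkpoint kinases BUB1, BUB1B and TTK ranged from 1.31 to 4.50 FPKM, and their log2 fold changes lay from -0.10 to 0.05. For each of these 3 genes the sign changed when 1 library was left out.

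Among the APC/C and checkpoint genes, UBE2C and CDC20 were higher in every shARHGEF2 library than in any shNC library. UBE2C, the ubiquitin-conjugating enzyme that works with the APC/C, was at 62.6, 59.1 and 64.4 FPKM in shNC and at 71.2, 76.5 and 72.0 FPKM in shARHGEF2 cells (log2 fold change 0.24, SE 0.08, limma adjusted p = 0.263). CDC20, the activator of the APC/C at anaphase, had 86.0, 85.2 and 94.6 FPKM in shNC and 106, 107 and 97.5 FPKM in shARHGEF2 cells (log2 fold change 0.23, SE 0.09, limma adjusted p = 0.304). The gap between the groups was narrow for CDC20, from 94.6 to 97.5 FPKM. The exact permutation test gave p = 0.1 for both genes, the smallest value that 3 libraries against 3 allow. The pseudogene CDC20P1, whose reads could be split with CDC20, reached 1.37 FPKM. PTTG1 (securin, which holds separase inactive, 31.9 to 39.6 FPKM) and MAD2L1 (the checkpoint protein that binds CDC20, 4.72 to 7.54 FPKM) had log2 fold changes of -0.02 and 0.19, with overlapping groups.

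The kinetochore genes gave 3 of 5 fitted differences above 0, with a median log2 fold change of 0.04. CENPA, the histone H3 variant that marks centromeres, was at 8.99, 9.98 and 10.2 FPKM in shNC and at 10.6, 10.4 and 11.5 FPKM in shARHGEF2 cells. There was no overlap of the groups, with the nearest values at 10.2 and 10.4 FPKM, and the log2 fold change was 0.14 (SE 0.10, limma adjusted p = 0.588). CENPA overlaps SLC35F6 on the same strand, which reached 12.3 FPKM, so that reads may have been split between them. NUF2, a subunit of the NDC80 complex that grips microtubules, had 2.05, 2.22 and 1.76 FPKM in shNC and 1.70, 2.54 and 2.57 FPKM in shARHGEF2 cells. Its lowest value was a shARHGEF2 library, and the log2 fold change was 0.11 (SE 0.15). The other subunits of the same complex, NDC80 (0.976 to 1.89 FPKM) and SPC25 (5.48 to 7.96 FPKM), were each fitted at -0.10, with intervals from -0.46 to 0.26 and from -0.42 to 0.22. CENPF, a large protein of the outer kinetochore, had 0.759 to 1.76 FPKM and a log2 fold change of 0.04.

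In the chromosomal passenger complex, 3 of 4 genes were fitted higher, with a median log2 fold change of 0.24. AURKB, its kinase, was at 36.8, 30.9 and 39.3 FPKM in shNC and at 49.1, 50.1 and 42.7 FPKM in shARHGEF2 cells. All 3 shARHGEF2 values were above all shNC values, and the log2 fold change was 0.40 (95% interval 0.14 to 0.66, limma adjusted p = 0.186). INCENP, the scaffold of the complex, had 12.7, 15.2 and 17.3 FPKM in shNC and 19.0, 19.8 and 15.1 FPKM in shARHGEF2 cells, where replicate 3 lay among the shNC values (log2 fold change 0.24, SE 0.14, limma adjusted p = 0.511). BIRC5 (survivin, 13.1 to 23.4 FPKM) and CDCA8 (borealin, 15.3 to 18.3 FPKM) had log2 fold changes of 0.25 and -0.03. The fitted signs of the 4 subunits differed, and the difference between them was not tested.

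Of the spindle genes, 7 of 8 tested were fitted higher, with a median log2 fold change of 0.23. KIF2C, a kinesin that depolymerises microtubules at centromeres, was at 16.2, 18.5 and 18.1 FPKM in shNC and at 23.0, 27.4 and 25.5 FPKM in shARHGEF2 cells, or 17.6 ± 1.22 against 25.3 ± 2.21 FPKM (SD, n = 3 each). It had the lowest p of the 42 genes, with a log2 fold change of 0.49 (SE 0.10, limma adjusted p = 0.117) and a 95% interval of 1.20 to 1.66 as a fold on the FPKM + 1 scale. TPX2, which activates AURKA on spindle microtubules, had 28.0, 35.3 and 30.9 FPKM in shNC and 35.5, 39.2 and 37.3 FPKM in shARHGEF2 cells (log2 fold change 0.25, SE 0.11, limma adjusted p = 0.356). Its groups were narrowly apart, with the nearest values at 35.3 and 35.5 FPKM. HMMR, a microtubule-binding protein of the spindle, was at 0.784, 1.08 and 0.815 FPKM in shNC and at 0.639, 0.760 and 0.656 FPKM in shARHGEF2 cells (log2 fold change -0.17, SE 0.11, limma adjusted p = 0.568). Its mean level, 0.790 FPKM, was the lowest of the 42 genes and near the minimum of 0.5 FPKM. The log2(FPKM + 1) scale understates a change at this level. With a pseudocount of 0.1 the log2 fold change of HMMR was -0.33 (limma adjusted p = 0.574). The other spindle genes tested were KIF11 (the motor that separates spindle poles), KIF4A, ASPM, DLGAP5 and NUSAP1, with log2 fold changes from 0.12 to 0.40 and overlapping groups. KIF4A overlaps PDZD11 on the opposite strand, which reached 32.6 FPKM, and whether strand was used in counting is not given in the sources used here.

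The cytokinesis genes, closest to the known role of ARHGEF2 and RHOA, gave 4 of 7 fitted differences above 0, with a median log2 fold change of 0.10. None of their groups were separated, beside 20.5% of all genes tested whose groups did not overlap. ECT2, the exchange factor that activates RHOA at the equator, was at 1.66, 2.38 and 1.65 FPKM in shNC and at 1.34, 2.47 and 1.79 FPKM in shARHGEF2 cells. The fitted log2 fold change was -0.02 (95% interval -0.42 to 0.37), and it ranged from -0.17 to 0.11 when single libraries were left out. For this other RHOA exchange factor the interval included 0 and left changes of either sign within it undecided. RACGAP1, the GTPase-activating subunit of centralspindlin, had 8.72, 11.4 and 9.93 FPKM in shNC and 9.46, 15.8 and 12.6 FPKM in shARHGEF2 cells (log2 fold change 0.29, SE 0.18, limma adjusted p = 0.529). KIF23, the kinesin subunit of the same complex, had 1.77, 2.57 and 1.79 FPKM in shNC and 1.35, 2.03 and 1.77 FPKM in shARHGEF2 cells (log2 fold change -0.16, SE 0.15, limma adjusted p = 0.702). The partners had opposite fitted signs, with intervals that both include 0 and a difference that was not tested.

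ANLN (anillin), which links RHOA to actin and septins in the ring, was at 3.89, 7.30 and 5.04 FPKM in shNC and at 3.91, 7.75 and 4.69 FPKM in shARHGEF2 cells. The values of the same replicate number were closer between groups than the replicates within a group, and the log2 fold change was -0.00 (95% interval -0.60 to 0.60). CIT (citron kinase), a RHOA effector at the midbody, had 1.49, 1.85 and 1.75 FPKM in shNC and 2.00, 1.87 and 1.81 FPKM in shARHGEF2 cells, with a fitted log2 fold change of 0.10 (95% interval -0.16 to 0.36). PRC1, which bundles the central spindle, had 6.27, 7.76 and 7.29 FPKM in shNC and 6.82, 11.0 and 8.85 FPKM in shARHGEF2 cells, with a fitted log2 fold change of 0.27 (SE 0.16, limma adjusted p = 0.517). KIF20A, the kinesin that brings the passenger complex to the central spindle, was at 9.97, 12.7 and 12.9 FPKM in shNC and at 12.3, 17.4 and 13.9 FPKM in shARHGEF2 cells (log2 fold change 0.27, SE 0.15, limma adjusted p = 0.479). In PRC1 and KIF20A the highest library was shARHGEF2 replicate 2 and the lowest was shNC replicate 1.

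The 2 genes of mitotic chromosomes differed in spread. TOP2A (topoisomerase II alpha, which untangles sister chromatids) had the largest fitted difference of the 42 genes, a log2 fold change of 0.51, and also the largest standard error, 0.30 (limma adjusted p = 0.508). It was at 3.47, 6.12 and 4.67 FPKM in shNC and at 4.59, 11.2 and 6.66 FPKM in shARHGEF2 cells, so that 1 library, shARHGEF2 replicate 2, carried much of it, and the log2 fold change without that library was 0.21. MKI67, which encodes the proliferation marker Ki-67, was at 3.14, 3.78 and 3.68 FPKM in shNC and at 3.22, 4.06 and 4.09 FPKM in shARHGEF2 cells. The difference of MKI67 was within the spread between replicates (log2 fold change 0.08, 95% interval -0.22 to 0.37, limma adjusted p = 0.858).

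The genes moved together between replicates of the same group. Among the 42 genes tested, replicate 1 was the lowest library for 29 genes in shNC and 31 genes in shARHGEF2 cells, against 43.5% and 48.1% of all genes tested. Replicate 2 was the highest library for 29 and 31 genes, against 48.6% and 41.6% of all genes. The mean level of the 42 genes on the log2(FPKM + 1) scale was 3.07, 3.31 and 3.19 in shNC and 3.17, 3.49 and 3.36 in shARHGEF2 libraries, so the groups overlapped. The difference of the group means was 0.15 on this scale and the pooled SD between libraries 0.14. Summed FPKM was taken over all 44 genes, and the abundant ones dominate it. By this sum the libraries stood at 625, 678 and 697 in shNC and at 741, 792 and 779 in shARHGEF2 cells, without overlap.

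This replicate difference varied with GC content, and in both GC ranges its median was larger in the 42 genes than in all genes tested. Replicate 2 minus replicate 1 on the log2(FPKM + 1) scale had a Spearman correlation with GC content of -0.47 in shNC and -0.64 in shARHGEF2 cells across the 42 genes, a description over genes of the same libraries. In the 21 genes of lower GC content (34.9 to 44.8%), the median of this difference was 0.36 in shNC and 0.50 in shARHGEF2 cells, and in the 21 genes of higher GC content (45.8 to 59.6%) it was 0.18 and 0.10. All genes tested with GC content at or below 45.3% had medians of 0.28 and 0.30, and those above it 0.03 and -0.02. GC content was not matched within these ranges, so its part in the gap to all genes was not tested. TOP2A (39.0% GC) differed by 0.67 and 1.13 and ANLN (41.3% GC) by 0.76 and 0.83 between these replicates, more than any of the 42 genes differed between the group means. FOXM1 (53.8% GC) differed by -0.66 and -0.53. The median log2 fold change between groups was 0.11 in the lower and 0.23 in the higher GC genes. With the GC trend removed from each library, an alternative chosen after seeing the data, 0 genes were called, 10 had an unadjusted p under 0.05 (18.6% of all genes tested) and groups did not overlap for 13 (26.2% of all genes tested).

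**Figure D3:**
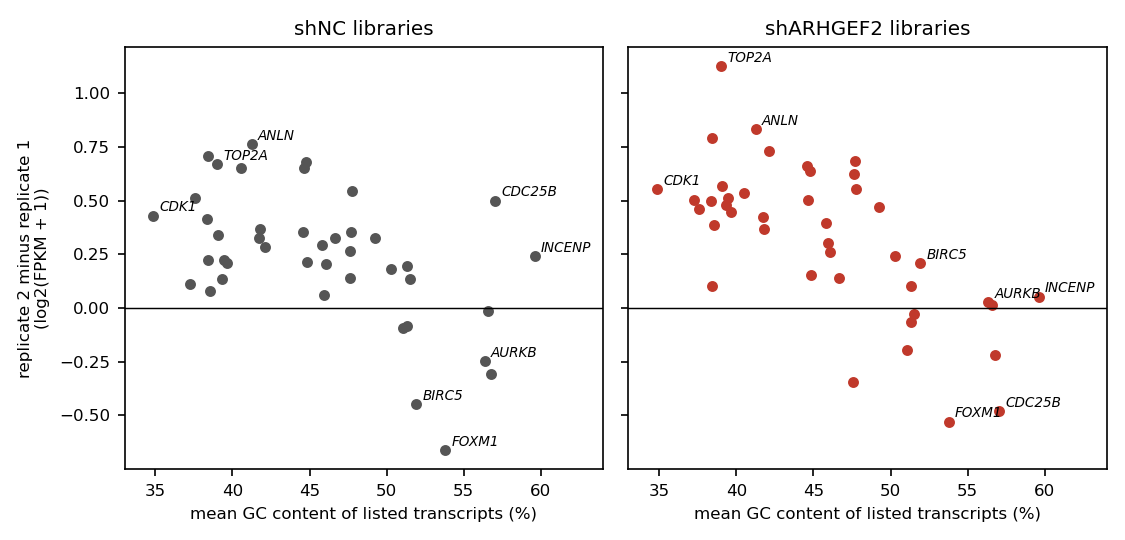
Difference between replicate 2 and replicate 1 of the same group on the log2(FPKM + 1) scale (y axis) against the mean GC content of the gene's listed transcripts (x axis, percent) for the 42 genes, with shNC on the left and shARHGEF2 on the right. Genes of low GC content such as TOP2A and ANLN lie above 0 and FOXM1 below it in both groups.

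Related genes outside the 44 gave no calls in 7 lists of cell cycle genes, beside 0.277% of all genes tested that were called. Of 31 other kinetochore genes tested, 18 were fitted higher and 13 lower (median log2 fold change 0.03), with the smallest p for SGO1, a protector of centromeric cohesion (group means of 1.19 and 1.82 FPKM), and SPC24, the partner of SPC25 (13.1 and 14.9 FPKM). Of 29 other spindle genes, 21 were fitted higher (median 0.07), led by TACC3, a clathrin-binding spindle protein, and the kinesin KIFC1, with log2 fold changes of 0.38 and 0.33 (limma adjusted p = 0.194 for both). Of 32 genes of the APC/C, cohesin and condensin, 15 were fitted higher (median -0.03). Among them CDCA5 (sororin, which keeps cohesin on DNA) had a log2 fold change of 0.44 and UBE2S, the enzyme that follows UBE2C on the APC/C, one of 0.28 (limma adjusted p = 0.181 and 0.312).

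Of 30 other cytokinesis genes, 15 were fitted higher and 15 lower, with a median log2 fold change of -0.01. SEPTIN9, a ring septin, was at 25.9, 20.6 and 25.9 FPKM in shNC and at 31.1, 36.8 and 36.1 FPKM in shARHGEF2 cells, without overlap (log2 fold change 0.51, SE 0.12, limma adjusted p = 0.129). KLHL21, an adaptor that directs a ubiquitin ligase to AURKB, had 8.64, 7.81 and 14.1 FPKM in shNC and 15.2, 18.1 and 14.8 FPKM in shARHGEF2 cells (log2 fold change 0.64, SE 0.20, limma adjusted p = 0.221). Without shNC replicate 3, the highest of its group, the limma adjusted p of KLHL21 was 0.0409, and over all alternatives it ranged from 0.0409 to 0.562. That fit called 0.828% of all genes tested, and leaving out the highest shNC library widens the gap by construction. The 11 DREAM and MuvB genes, whose complexes bind the CHR and other elements, had a median log2 fold change of -0.00, with 0.31 for RBBP4 and -0.17 for TFDP1 at the smallest p.

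A list of CDK inhibitors, not all specific to G2 and mitosis, and of brakes of G2 and mitosis had the highest median of the 7 lists. This was 0.24 over 13 genes, with 11 fitted higher and 0 called. The lists, too, were chosen with earlier results of these data known. CDKN2D (p19), an inhibitor of CDK4 and CDK6, was at 10.3, 7.89 and 16.1 FPKM in shNC and at 20.3, 23.8 and 20.6 FPKM in shARHGEF2 cells, without overlap (log2 fold change 0.91, SE 0.22, limma adjusted p = 0.148). Here too shNC replicate 3 was nearest to the other group, and without it the limma adjusted p was 0.0234, within a range of 0.0234 to 0.461 over the alternatives. Leaving out the nearest library widens the gap by construction, and 0.828% of all genes tested were called in that fit. SFN (14-3-3 sigma), which holds CDK1 complexes in the cytoplasm, was at 228 ± 21.5 FPKM in shNC and 287 ± 16.2 FPKM in shARHGEF2 cells (SD, n = 3 each; log2 fold change 0.33, limma adjusted p = 0.184). Of 38 genes of the G1/S transition and replication, 24 were fitted higher (median 0.05), with FEN1 at 0.31 and E2F1 at 0.47 having the smallest p (limma adjusted p = 0.184 and 0.190).

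**Figure D4:**
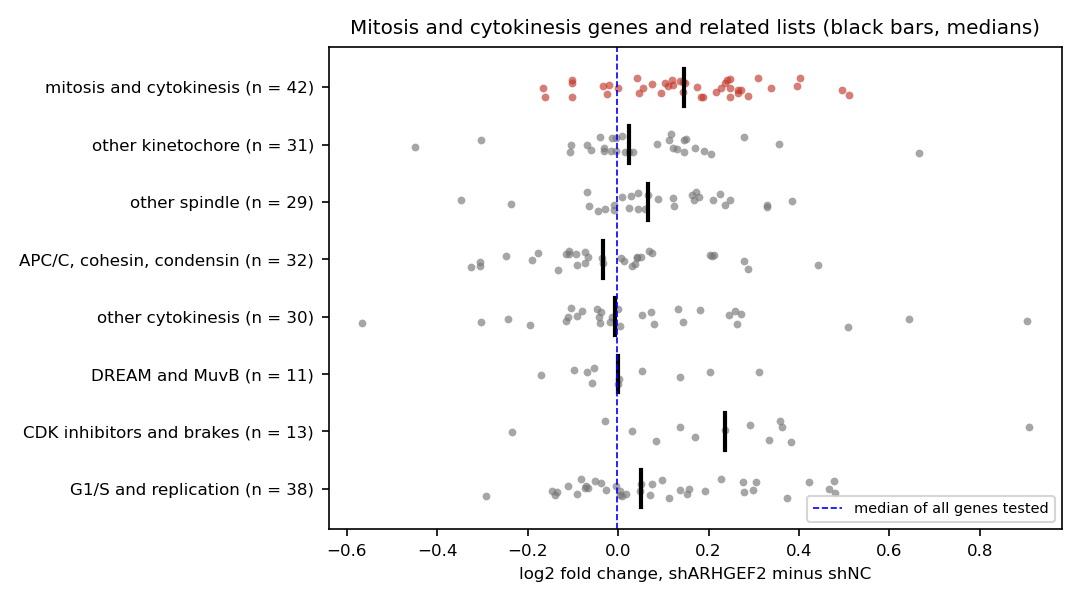
Log2 fold change, shARHGEF2 minus shNC on the log2(FPKM + 1) scale (x axis), of each gene tested in the mitosis and cytokinesis genes (red) and in 7 related lists (grey), with a black bar at each list's median and a dashed line at the median of all genes tested. The medians run from -0.03 for the APC/C, cohesin and condensin genes to 0.24 for the CDK inhibitors and brakes, and the mitosis and cytokinesis genes lie at 0.15.

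The annotation columns of the table gave wider sets, whose calls stand beside the 0.277% of all genes tested that were called. Of 44 tested genes annotated to mitotic cytokinesis, 22 were fitted higher and 22 lower, and 0 were called. Of 342 annotated to cell division, 1 was called, and this was ARHGEF2 itself. RANGAP1, which stimulates GTP hydrolysis by RAN and sits at kinetochores when modified by SUMO, was the 1 gene called among 113 kinetochore and 75 mitotic spindle genes. It was at 34.6, 32.4 and 38.2 FPKM in shNC and rose to 56.7, 53.3 and 51.8 FPKM in shARHGEF2 cells (log2 fold change 0.61, SE 0.09, limma adjusted p = 0.0487). This call lay at the threshold, with a limma adjusted p from 0.0399 to 0.304 over the alternatives, and it was lost when any 1 library other than shNC replicate 3 was left out.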

How the data were processed

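Total RNA of 6 HepG2 libraries was poly(A) selected, made into dUTP-marked libraries with molecular identifiers and sequenced as read pairs. The submitters' processing notes name cutadapt 1.9, HISAT2 2.0.4, UMI-tools, StringTie 1.3.4d, DESeq2, edgeR and the build hg19, with no roles. The authors deposited FPKM per gene, which were used as they stand. Columns with the authors' own ratios and p-values were not used. Positions of genes, GC content and overlaps were taken from GENCODE 29 on GRCh38 (94.7% of 112516 listed transcripts found), and promoters from RefSeq.

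Read pairs were estimated from the spacing of low values, but only 36.5 to 38.1% of these lay within 0.1 of a whole pair (20.0% by chance), so no count test was run. Genes whose mean over the libraries reached 0.5 FPKM were tested with limma 3.58.1 (R 4.3.3, statmod 1.5.0) on log2(FPKM + 1), with trend and robust variances, two-sided, with Benjamini-Hochberg adjustment over all 12291 genes and calls at 0.05. An exact permutation test over the libraries was added for single genes (smallest p 0.1). A fold on this scale understates the change of low genes. The fit was tested on simulated data. The 44 genes and all lists were chosen with earlier results of these data known. Library values are given for the 3 genes of highest mean, the 2 of smallest p in each role, those called or not overlapping, MKI67, FOXM1 and the cytokinesis genes linked to RHOA. Of each related list the genes called and the 2 of smallest p are named. The table carries the term mitotic cytokinesis, which replaced cytokinesis. Alternatives were another pseudocount, other filters and scalings, no trend, a replicate block, each library left out and, chosen after seeing the data, removal of a loess GC trend (span 0.3). Python 3.11.15 with pandas 2.3.3 was used for the tables.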

Additional observations from a re-analysis of the deposited data

How the results depend on the processing

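Under all 14 alternatives 0 of the mitosis and cytokinesis genes were called, and their median log2 fold change lay from 0.09 to 0.20. The lowest limma adjusted p of any of them was 0.0506 (KIF2C, GC trend removed). The number with an unadjusted p under 0.05, 5 as reported (13.7% of all genes tested), was 3 with median ratio scaling (13.1%) or with no trend or robust variances (13.4%), 10 with the GC trend removed (18.6%), and 3 to 11 when single libraries were left out (11 without shARHGEF2 replicate 1, 12.1%). Groups did not overlap for 7 genes as reported (20.5% of all genes tested) and for 13 with the GC trend removed (26.2%). With single libraries left out the share of all genes also rose, to 27.7 to 33.9%, and the number was 7 to 20, with 9 without shNC replicate 1 (27.7%), 7 without shNC replicate 3 (33.9%) and 9 without shARHGEF2 replicate 3 (28.1%). Over all genes, 34 were called (24 higher, 10 lower). The count was 1 with no filter (0 higher, 1 lower), 54 with at least 1 FPKM in 3 or more libraries (39 higher), 19 with quantile normalization (12 higher), 7 with median ratio scaling and 7 with no trend or robust variances (4 higher and 3 lower in each), and 6 to 102 with single libraries left out (3 to 76 higher, 3 to 26 lower, 102 without shNC replicate 3). The cause of these differences was not tested.

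Whether the replicate numbers pair the libraries is not given in the sources used here. For replicates 1, 2 and 3, the correlations of the deviations of libraries with the same number were 0.184, 0.159 and -0.105 over all genes. Over the 42 genes they were 0.415, 0.666 and -0.24, so that replicate 3 went the other way in both sets. Replicate 1 was lowest in both groups for 24 of 42 genes (27.7% of all genes tested), and replicate 2 highest in both for 24 (25.8%). By number, 23 of 42 genes were higher in shARHGEF2 in all 3 pairs, against 21.8% of all genes. With a replicate block, 0 genes were called (0 higher, 0 lower), ARHGEF2 had a limma adjusted p of 0.0716 (0.0701 with no filter, and from 0.00157 to 0.0157 over the other alternatives), and 14 of the mitosis and cytokinesis genes had an unadjusted p under 0.05 (16.1% of all genes tested).

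Of 587 values of the 42 genes under alternatives, 560 kept their sign and 27, in 14 genes, did not. With the GC trend removed the log2 fold change was 0.0018 for PTTG1 and 0.0211 for ANLN, and RHOA was at 0.0087 with quantile normalization. With single libraries left out, log2 fold changes of the other genes that changed sign ranged from -0.007 to 0.3304 (CDC25B), -0.1381 to 0.2491 (FOXM1), -0.0552 to 0.1564 (BUB1), -0.2373 to 0.0898 (BUB1B), -0.1282 to 0.1682 (TTK), -0.0949 to 0.2302 (CENPF), -0.192 to 0.0473 (NDC80), -0.0777 to 0.0376 (CDCA8), -0.0357 to 0.2594 (KIF4A), -0.0033 to 0.3972 (DLGAP5) and -0.1709 to 0.1142 (ECT2), and those of PTTG1 and ANLN from -0.0932 to 0.0589 and from -0.2428 to 0.2028. SPC25 ranged from -0.2175 to 0.0061. Depth was only estimated, so no counting interval was set, and 3 libraries a group limited the precision.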
